A study of Mus musculus with 60 samples.

Results

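The 10 genes described here belong to glutathione synthesis and to the antioxidant programme of the transcription factor NRF2: Gclc, Gclm, Srxn1, Slc7a11, Txnrd1, Nqo1, Gsr, Prdx1, Nfe2l2 and Keap1. They were taken by symbol, and each named 1 row among the 24411 genes of the deposited count table. Kupffer cells, the macrophages that reside in liver sinusoids, were sequenced from 15 mice, 5 in each of 3 groups. The first group was Trem1-deficient and had received carbon tetrachloride (CCl4), a hepatotoxin. The second was wild type and had received CCl4, and the third was wild type and had received the corn oil vehicle. CCl4 was given once, at 2 µl per g body weight and diluted in corn oil. All mice were C57BL/6J, were labelled 8 weeks old and male, and were killed 12 h after the dose. TREM1 is an activating receptor of myeloid cells. The allele behind the deficiency is not stated in the labels, and Trem1-deficient mice given oil were not analysed here, so that genotypes were compared only after CCl4. Kupffer cells had been enriched with F4/80 beads after removal of hepatocytes by low-speed spinning and of CD11b-binding cells, so each library is a bulk sample of what the beads held.

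Glutathione is the main small thiol of the cell. It is made from cysteine, glutamate and glycine, and its first step is run by glutamate-cysteine ligase, an enzyme with a catalytic subunit (Gclc) and a modifier subunit (Gclm). Under resting conditions KEAP1 hands NRF2, the product of Nfe2l2, to degradation; when electrophiles or oxidants modify KEAP1, NRF2 accumulates and binds antioxidant response elements (AREs) near genes such as the other 8. In the liver, CCl4 is turned by hepatocyte cytochrome P450 enzymes into radicals that attack lipids, and Kupffer cells meet the debris and the mediators of the injured hepatocytes.

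The libraries held 812320 to 2593004 counts in genes. Levels are given as CPM, counts per 1e6 counts after TMM scaling of the libraries; before scaling, 3 counts are 1.16 to 3.69 CPM, so levels of that height rest on a few reads. Trem1 itself had 1.17 to 10.9 CPM in the Trem1-deficient mice, 111 to 575 CPM in wild-type mice given CCl4 and 32.9 to 109 CPM in wild-type mice given oil. Kupffer cell markers were present throughout: 0 of 16 were at 0 in any group, and Clec4f, a lectin receptor restricted to Kupffer cells, averaged 1259 ± 263, 268 ± 178 and 2261 ± 644 CPM in the same order (SD, n = 5 each). Xist, which is transcribed in female cells, had 72 to 755 counts in the 5 oil mice and 1552 and 1400 counts in Trem1-deficient mice 1 and 2. In the other 3 Trem1-deficient mice and in all 5 wild-type CCl4 mice it had 1 to 31 counts, with 134 to 425 counts from Y-linked genes. The same 7 libraries carry the sequencing index numbers 15, 27, 39, 51, 63, 75 and 87, and the 8 carry 4, 16, 28, 40, 52, 64, 76 and 88. The labels and headers name no series, and index series here means these 2 runs of evenly spaced numbers. All mice are labelled male, so the transcripts go against the label in 7 libraries. Sex or index series cannot be told apart from CCl4 in the wild-type comparison. Results are also given with the index series as a term of the fit and, where a comparison allows it, within 1 series. Only the Trem1-deficient group holds libraries of both series, so the term is estimated from its mice and taken to hold in wild type. In the wild-type comparison the term therefore does not separate series or sex from CCl4.

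The RefSeq promoter table (GRCm38.p6) held 8 of the 10 genes, at 10 start sites. Each window, from 250 bases before a start site to 50 bases after it, was searched on both strands for the ARE core, TGACNNNGC, and for the AP-1 site, TGAGTCA. An ARE core was found for 5 of the 8 genes, Gclm, Srxn1, Txnrd1, Prdx1 and Nfe2l2. By window this was 5 of the 10 start sites, against 12.4% of all 32851 windows in the table. An AP-1 site was found for Srxn1 and Prdx1, at 2 positions each, against 5.2% of all windows; in Prdx1 one of them overlaps the ARE core. The 250 bases before the start site are printed for 3 genes whose transcripts rose after CCl4 (Srxn1, Txnrd1 at its second listed start, Slc7a11) and for Gclm, which passed no test, with capitals for matches of either motif. The windows are chr2:152105274-152105523 on the plus strand for Srxn1, chr10:82858956-82859205 on the plus strand for Txnrd1, chr3:50443614-50443863 on the minus strand for Slc7a11 and chr3:122245307-122245556 on the plus strand for Gclm.
Srxn1: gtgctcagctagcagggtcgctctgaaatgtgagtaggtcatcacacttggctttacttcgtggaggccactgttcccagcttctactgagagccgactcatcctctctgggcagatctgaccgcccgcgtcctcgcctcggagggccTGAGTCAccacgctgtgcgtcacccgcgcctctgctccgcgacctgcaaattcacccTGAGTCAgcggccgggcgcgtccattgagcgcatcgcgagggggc
Txnrd1: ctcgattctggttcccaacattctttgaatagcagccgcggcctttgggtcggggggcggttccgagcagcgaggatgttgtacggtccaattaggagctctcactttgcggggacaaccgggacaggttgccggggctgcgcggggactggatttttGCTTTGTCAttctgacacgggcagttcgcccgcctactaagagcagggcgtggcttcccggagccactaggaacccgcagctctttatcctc
Slc7a11: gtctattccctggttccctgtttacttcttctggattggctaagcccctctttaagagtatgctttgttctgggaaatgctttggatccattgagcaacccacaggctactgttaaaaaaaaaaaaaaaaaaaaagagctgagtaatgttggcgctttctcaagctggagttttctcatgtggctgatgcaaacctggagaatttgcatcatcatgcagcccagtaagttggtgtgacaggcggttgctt
Gclm: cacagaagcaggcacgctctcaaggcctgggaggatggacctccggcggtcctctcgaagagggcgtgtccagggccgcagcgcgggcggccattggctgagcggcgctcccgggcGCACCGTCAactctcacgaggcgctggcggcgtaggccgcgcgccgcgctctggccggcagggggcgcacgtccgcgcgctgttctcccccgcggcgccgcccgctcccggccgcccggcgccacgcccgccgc
In the Srxn1 sequence both capital runs are AP-1 matches, 102 and 45 bases before the start, and its ARE core lies past the start at bases 29 to 37. The capitals in Txnrd1 (bases -92 to -84) and in Gclm (bases -134 to -126) are ARE cores read from the opposite strand. Slc7a11 has neither set of letters in its window. A match of letters is a description of the sequence, and says nothing of binding: Gclm, Prdx1 and Nfe2l2 hold the core and passed no test, and Slc7a11 does not hold it and rose after CCl4.

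CCl4 in wild-type mice was the first comparison. Glutathione synthesis was represented by a rise of its catalytic subunit, Gclc, and of the cystine importer Slc7a11, while the modifier subunit Gclm passed no test. Srxn1, which repairs over-oxidised peroxiredoxins, rose 5.34-fold, and Txnrd1, the cytosolic thioredoxin reductase, 2.06-fold. By edgeR's quasi-likelihood test, 4 of the 9 tested genes were called higher and 0 lower at an adjusted p under 0.05 over 9001 genes. Of all tested genes 3.04% were called higher and 2.09% lower. DESeq2 called 4 of the 9 higher, and 5 were higher at an unadjusted p under 0.05 in edgeR. By either measure 0 were lower. Over all genes, in either direction, DESeq2 called 1084, and 1707 of 9001 had an unadjusted p under 0.05 in edgeR. The median log2 fold change of the 9 was 1.01, against 0.06 for all tested genes. Slc7a11, 1 of the 4, passed the filter on low counts through the wild-type CCl4 group alone. The filter thus favoured a difference in Slc7a11, and neither count nor median supports anything further. The tenth gene, Nqo1, had too few counts to be tested.

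Gclc (chromosome 9, 77754535 to 77794485, plus strand, GENCODE M21 on GRCm38) encodes the subunit that joins glutamate to cysteine. Its level was 109.7, 489, 592, 556 and 1685 CPM in wild-type mice 1 to 5 given CCl4, and 41.3, 12.5, 19.3, 9.60 and 40.6 CPM in wild-type mice given oil. The groups did not overlap, and CCl4 mouse 1 was the lowest and mouse 5 the highest of their group. The fitted log2 fold change was 4.78 ± 0.69 (SE; edgeR adjusted p = 0.000196), and without CCl4 mouse 5 it was 4.10. With the index series as a term it was 4.92 (edgeR adjusted p = 0.0429), and Gclc was the 1 gene of the 9 still called. That term rests on the Trem1-deficient mice alone, so it does not separate series from CCl4 in wild type.

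Slc7a11 (chromosome 3, 49892526 to 50443614, minus strand) encodes the transport chain of the cystine/glutamate exchanger. It brings in cystine, a source of the cysteine that limits glutathione synthesis. It had 35.9, 156, 109.8, 111 and 92.7 CPM in the CCl4 mice. In the oil mice it had 0, 0, 0.714, 0 and 5.26 CPM, from 0, 0, 1, 0 and 11 counts, so that every oil library but the fifth was at or below the level of 3 counts. The log2 fold change was 6.06 ± 1.14 (edgeR adjusted p = 0.00104) for a gene tested through its wild-type CCl4 counts alone; it depends on the few counts in oil, and without oil mouse 5 it was 8.39. With the index series as a term it was 4.17 and not called (adjusted p = 0.566). Slc3a2, the heavy chain that Slc7a11 pairs with and that serves other amino acid carriers too, averaged 263 ± 61.1 CPM with CCl4 and 231 ± 19.9 CPM with oil (SD, n = 5 each), a log2 fold change of 0.19 ± 0.31 that was not called (edgeR adjusted p = 0.810).

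Srxn1 (chromosome 2, 152105516 to 152111376, plus strand) encodes sulfiredoxin, whose promoter is printed above with its pair of AP-1 matches. It had 291, 401, 503, 398 and 317 CPM in the CCl4 mice and 104, 75.1, 75.7, 52.8 and 49.7 CPM in the oil mice. All CCl4 mice lay above all oil mice, with less scatter than Gclc. Its log2 fold change was 2.42 ± 0.38 (edgeR adjusted p = 0.000124) and 1.31 with the index series as a term, where it was not called (adjusted p = 0.684).

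Txnrd1 (chromosome 10, 82833951 to 82897712, plus strand) encodes the NADPH-dependent selenoenzyme that reduces thioredoxin. It had 786, 401, 806, 611 and 822 CPM in the CCl4 mice and 453, 237, 371, 376 and 226 CPM in the oil mice. The ranges overlapped, since CCl4 mouse 2 lay under oil mouse 1. Its log2 fold change, 1.04 ± 0.31, passed narrowly (edgeR adjusted p = 0.0486): it was called in 1 of the 15 fits that left out a mouse, and was 0.06 with the index series as a term (adjusted p = 1.00).

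**Figure D1:**
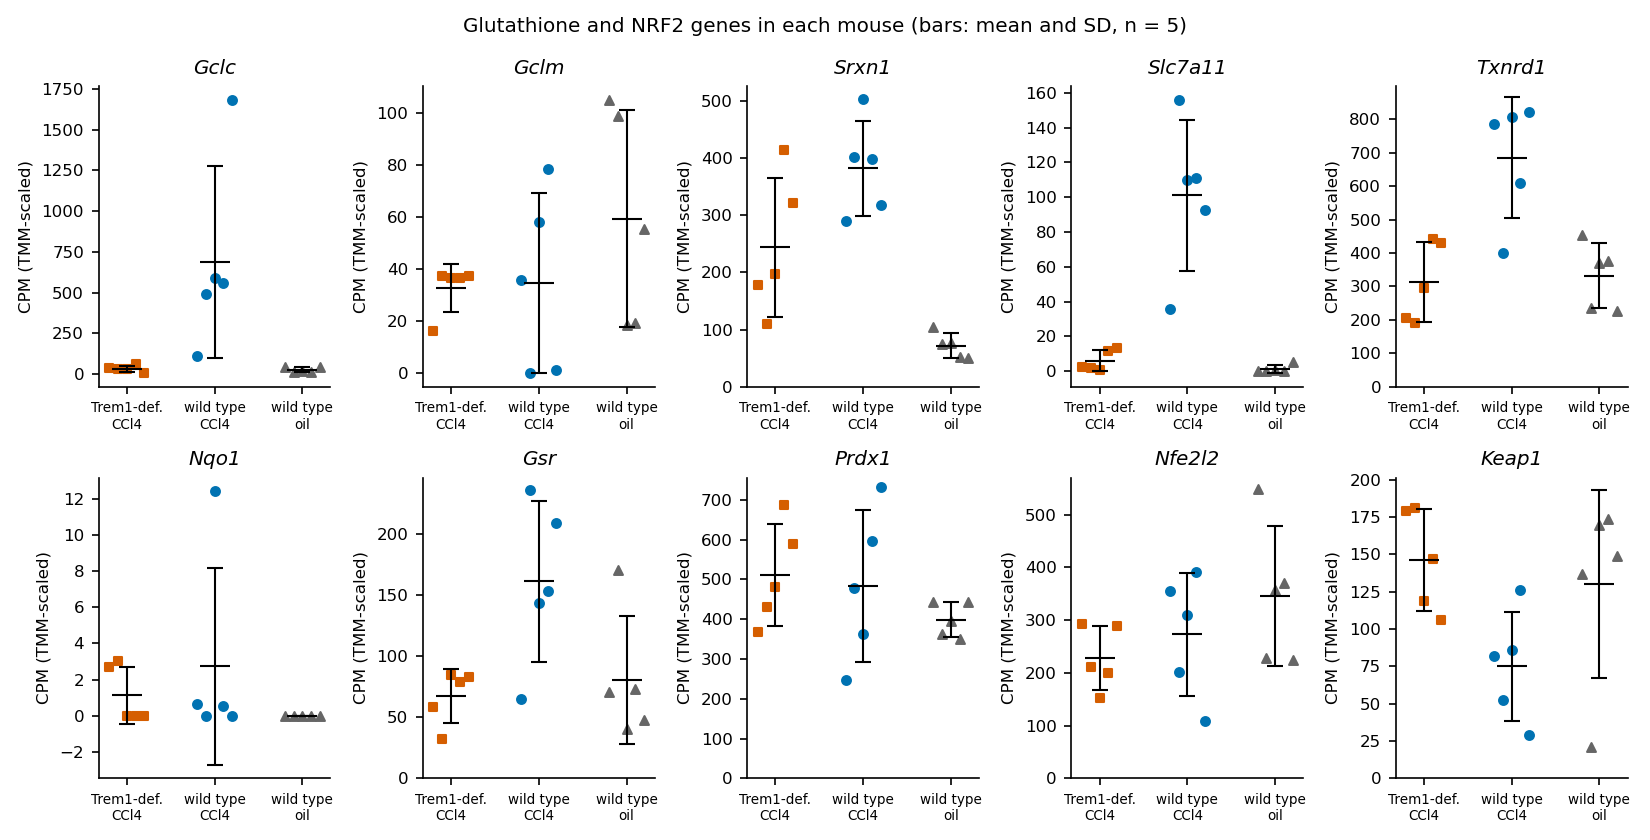
CPM of the 10 genes in each mouse, on linear axes, with mice 1 to 5 from left to right in each group of Trem1-deficient CCl4, wild-type CCl4 and wild-type oil; horizontal bars are means and whiskers SD (n = 5). Gclc and Slc7a11 are high in the wild-type CCl4 mice alone, at 109.7 to 1685 and 35.9 to 156 CPM, whereas Gclm, Prdx1 and Nfe2l2 overlap across the groups.

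Gclm (chromosome 3, 122245557 to 122270732, plus strand) encodes the subunit that makes the ligase more efficient. Its level was 35.9, 0, 58.2, 78.4 and 1.38 CPM in the CCl4 mice and 105, 98.9, 18.6, 19.2 and 55.4 CPM in the oil mice. CCl4 mice 2 and 5, in which Gclc was high, had 0 and 1 counts of Gclm. Gclm gave a log2 fold change of -0.76 ± 0.88 (edgeR adjusted p = 0.711). An antisense transcript, Gm17494, covers the 3′ end of Gclm, and no source used here gives the strand setting of the counting, so reads of Gclm and of the antisense transcript cannot be told apart.

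The remaining genes passed no test after CCl4. Gsr (chromosome 8, 33652523 to 33698163, plus strand), the reductase that regenerates glutathione from its oxidised form, had 65.2, 236, 143, 153 and 209 CPM in the CCl4 mice and 70.5, 170.3, 40.7, 73.0 and 47.8 CPM in the oil mice. Of the CCl4 mice, 4 of 5 were above every oil mouse but the second; the log2 fold change was 1.01 ± 0.49 (edgeR adjusted p = 0.255). Prdx1 (chromosome 4, 116685544 to 116700822, plus strand), a peroxiredoxin that removes hydrogen peroxide and is a substrate of sulfiredoxin, averaged 483 ± 190.4 CPM with CCl4 and 399 ± 43.4 CPM with oil (SD, n = 5 each; log2 fold change 0.27 ± 0.29, edgeR adjusted p = 0.682). The spread of Prdx1 was wider in the CCl4 mice, at 247 to 732 CPM, than in the oil mice, at 351 to 443 CPM.

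The 2 regulators gave no call either. Nfe2l2 (chromosome 2, 75675513 to 75704641, minus strand) had 355, 201, 309, 391 and 108 CPM in the CCl4 mice and 549, 228, 358, 369.6 and 224 CPM in the oil mice, a log2 fold change of -0.34 ± 0.35 (edgeR adjusted p = 0.671). Keap1 (chromosome 9, 21229730 to 21239361, minus strand) had 81.8, 52.4, 85.9, 126 and 29.1 CPM in the CCl4 mice and 137, 21.3, 170.0, 174 and 149 CPM in the oil mice. Keap1 was at 126 CPM or less in every CCl4 mouse and at 137 CPM or more in every oil mouse but the second, with a log2 fold change of -0.79 ± 0.48 (edgeR adjusted p = 0.402). NRF2 is regulated chiefly through the stability of the protein, which transcript counts do not measure. An antisense gene, Gm16754, covers the 3′ end of Keap1, with the same limit as for Gclm.

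Nqo1 (chromosome 8, 107388225 to 107403206, minus strand), a quinone reductase often used as a read-out of NRF2, was barely detectable at this depth. It had 8, 9, 0, 0 and 0 counts in the Trem1-deficient CCl4 mice, 1, 0, 13, 1 and 0 counts in the wild-type CCl4 mice and 0 counts in all 5 oil mice. In every group most libraries were at or under 3 counts, so no fold change is given.

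Trem1 deficiency after CCl4 was the second comparison. Gclc and Slc7a11 fell in the Trem1-deficient mice relative to wild-type mice given the same dose, 21.9-fold and 17.2-fold by the fit. Srxn1, Gclm, Gsr, Prdx1, Nfe2l2, Keap1 and Txnrd1 were not called by edgeR. This was 2 genes lower and 0 higher of 9 (edgeR, adjusted p under 0.05), when 1.28% of all tested genes were called lower and 0.778% higher. DESeq2 called 3 of the 9 lower, Txnrd1 among them, and 4 were lower at an unadjusted p under 0.05 in edgeR. By either measure 0 of the 9 were higher. Over all genes, in either direction, DESeq2 called 660, and 1365 of 9001 had an unadjusted p under 0.05 in edgeR. Slc7a11 is again a gene that was tested because of its wild-type CCl4 counts. The median log2 fold change of the 9 was -0.65, against -0.03 for all tested genes. The wild-type CCl4 libraries serve in both comparisons, so the calls of a gene in the first and in the second are not independent.

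Gclc had 34.4, 31.8, 28.3, 58.0 and 4.69 CPM in Trem1-deficient mice 1 to 5, against the 109.7 to 1685 CPM of the wild-type CCl4 mice. Every Trem1-deficient mouse lay below every wild-type CCl4 mouse, and mouse 5 was the lowest. The log2 fold change was -4.45 ± 0.68 (edgeR adjusted p = 0.00106), and -3.76 without wild-type mouse 5. It was -4.51 with the index series as a term (adjusted p = 0.00924) and -4.49 among the 8 libraries of 1 series, Trem1-deficient mice 3 to 5 against the 5 wild-type CCl4 mice (adjusted p = 0.0453).

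Slc7a11 had 2.34, 2.03, 0.435, 11.4 and 13.5 CPM in the Trem1-deficient mice, against 35.9 to 156 CPM in the wild-type CCl4 mice. The groups did not overlap, and Trem1-deficient mice 4 and 5 were the highest of their group. For Slc7a11 the log2 fold change was -4.11 ± 1.01 (edgeR adjusted p = 0.0262). The call did not hold in the fits without Trem1-deficient mouse 1, 2 or 3 or wild-type CCl4 mouse 2, 3 or 4, with adjusted p of 0.0526 to 0.0874, nor with the index series as a term (-3.58, adjusted p = 0.191) or within 1 series (-3.57, adjusted p = 0.141).

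Txnrd1 had 204, 190.4, 296, 442 and 431 CPM in the Trem1-deficient mice, against 401 to 822 CPM in the wild-type CCl4 mice. The ranges met at wild-type mouse 2, which lay under Trem1-deficient mice 4 and 5. The log2 fold change of -1.13 ± 0.31 missed the threshold by little (edgeR adjusted p = 0.0512), and DESeq2's Wald test gave -1.22 with an adjusted p of 0.0162. Within 1 index series it was -0.80 (adjusted p = 0.648). Gsr, with 58.5, 32.2, 84.8, 78.4 and 82.6 CPM in the Trem1-deficient mice, was below 4 of the 5 wild-type CCl4 mice in each of them, at -1.26 ± 0.49 (edgeR adjusted p = 0.197).

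Srxn1 had 178, 109.8, 197, 413 and 322 CPM in the Trem1-deficient mice, against 291 to 503 CPM in the wild-type CCl4 mice. Trem1-deficient mice 1 to 3 lay below the wild-type range and mice 4 and 5 inside it. This gave a log2 fold change of -0.65 ± 0.36 (edgeR adjusted p = 0.389), which does not show that the genotypes were alike. Keap1 had 179, 181, 119, 147 and 106 CPM in the Trem1-deficient mice, against 29.1 to 126 CPM in the wild-type CCl4 mice, overlapping at wild-type mouse 4 (log2 fold change 0.96 ± 0.48, edgeR adjusted p = 0.346). Gclm had 16.4, 37.3, 36.5, 36.7 and 37.5 CPM in the Trem1-deficient mice, inside the 0 to 78.4 CPM of the wild-type CCl4 mice (-0.09 ± 0.87, edgeR adjusted p = 0.976), and was even across mice 2 to 5. Nfe2l2 averaged 229 ± 60.7 CPM in Trem1-deficient and 273 ± 117 CPM in wild-type CCl4 mice (SD, n = 5 each; edgeR adjusted p = 0.802). Prdx1 averaged 511 ± 128 CPM and 483 ± 190.4 CPM in the same order (edgeR adjusted p = 0.935).

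Trem1-deficient mice given CCl4 were also set against wild-type mice given oil, a contrast of genotype and treatment together. Srxn1 was the 1 gene of the 9 that passed, and it was higher; of all tested genes 0.178% were called higher and 0.0555% lower. Its 109.8 to 413 CPM in the Trem1-deficient CCl4 mice lay above the 49.7 to 104 CPM of the oil mice, with a log2 fold change of 1.77 ± 0.37 (edgeR adjusted p = 0.0223). The call did not hold without Trem1-deficient mouse 4 or 5 or oil mouse 3, 4 or 5 (adjusted p of 0.0758 to 0.137), nor within 1 index series, Trem1-deficient mice 1 and 2 against the oil mice (1.03, adjusted p = 0.775). Gclc averaged 31.4 ± 19.0 CPM in the Trem1-deficient CCl4 mice and 24.7 ± 15.3 CPM in the oil mice (SD, n = 5 each), a log2 fold change of 0.33 ± 0.61. Slc7a11 had 0.435 to 13.5 CPM in the Trem1-deficient CCl4 mice and 0 to 5.26 CPM in the oil mice, and its log2 fold change of 1.96 ± 1.01 was not called. The other tested genes lay between -0.85 for Gclm and 0.36 for Prdx1, and the median of the 9 was 0.17, against 0.02 for all tested genes. This comparison shares its libraries with the others, and its values for Gclc and Srxn1 are given for their size rather than as separate evidence.

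**Figure D2:**
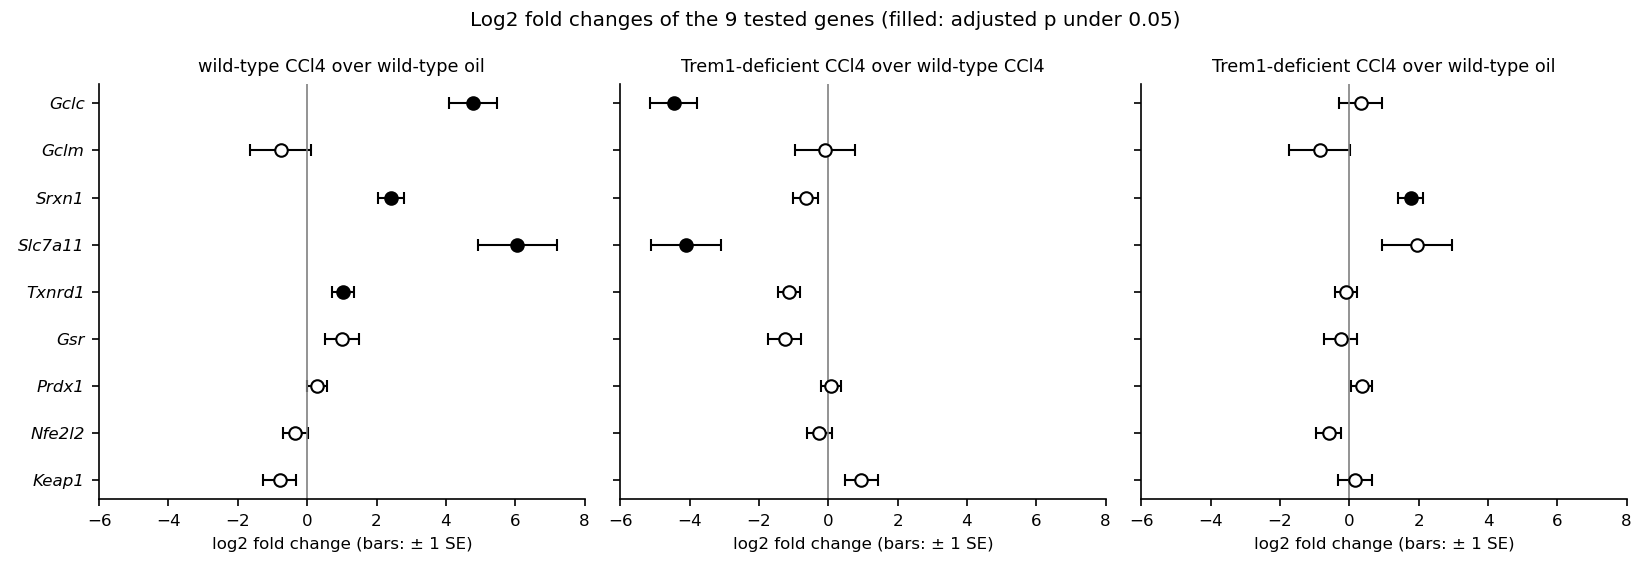
Log2 fold changes of the 9 tested genes with 1 SE, for wild-type CCl4 over wild-type oil, Trem1-deficient CCl4 over wild-type CCl4, and Trem1-deficient CCl4 over wild-type oil; filled points have an edgeR adjusted p under 0.05. Gclc stands at 4.78 in the left panel and -4.45 in the middle one, and Srxn1 is the filled point of the right panel at 1.77.

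The 2 subunits of the ligase were counted in very different proportion across libraries. Gclc had 165, 486, 620, 972 and 1218 counts in the wild-type CCl4 mice, where Gclm had 54, 0, 61, 137 and 1. In the Trem1-deficient CCl4 mice Gclc was between 0.125 and 2.10 times Gclm, and in the oil mice between 0.127 and 1.04 times. In every wild-type CCl4 mouse Gclc exceeded Gclm by at least 3.06 times, with no ratio for mouse 2, where Gclm was at 0. These are proportions of 3′ tag counts, given as a description with no test, and the limit set by the antisense transcript over Gclm holds for them.

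**Figure D3:**
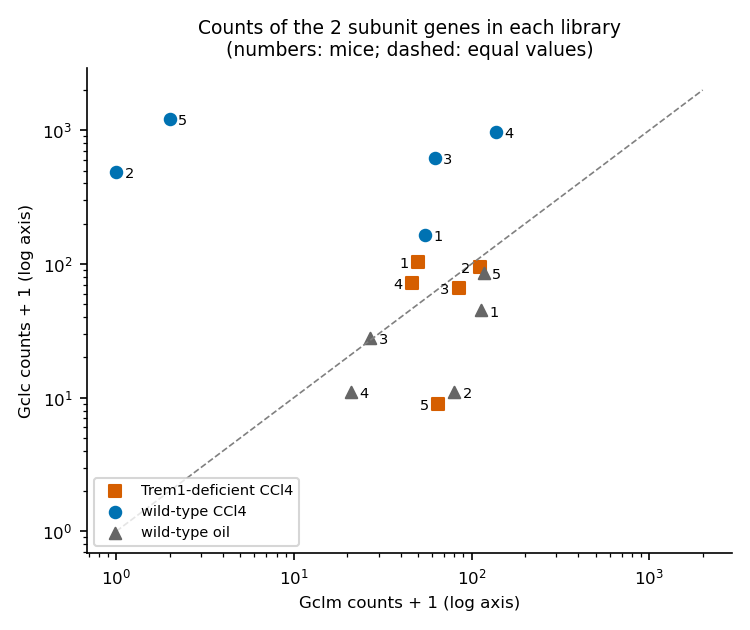
Counts of Gclc (vertical) against Gclm (horizontal), each plus 1 on log axes, in the 15 libraries; colours and symbols are the groups, numbers are the mice and the dashed line marks equal values. The 5 wild-type CCl4 libraries lie above the line, at 165 to 1218 counts of Gclc, and mice 2 and 5 sit at the left edge with 0 and 1 counts of Gclm.

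Transcripts of other cell types moved with the groups. The summed level of 20 hepatocyte markers was 2709, 1757, 6343, 12152 and 19259 CPM in Trem1-deficient CCl4 mice 1 to 5, 16679, 43788, 45582, 26053 and 39317 CPM in wild-type CCl4 mice, and 8739, 18666, 6527, 3669 and 4831 CPM in the oil mice; 1 of the 20, Ass1, was at 0 in all mice. Of 19 tested, 3 were called higher after CCl4 in wild type and 2 lower in the Trem1-deficient mice. Kupffer cell markers summed to 51489 to 62701 CPM in the Trem1-deficient CCl4 mice, 6424 to 24076 CPM in the wild-type CCl4 mice and 36913 to 72409 CPM in the oil mice, with 13 of 16 called lower after CCl4 and 12 of 16 called higher in Trem1-deficient mice. Monocyte markers summed to 1130.5 to 2214, 2928 to 5408 and 1155 to 2236 CPM, and neutrophil markers to 398 to 3297, 1337 to 12403 and 228 to 1779 CPM, in the same order. Kupffer cell sums were lowest and monocyte sums highest in the wild-type CCl4 libraries without overlap, and hepatocyte and neutrophil sums were highest there with some overlap. The other 7 cell-type lists held a single call, among cholangiocyte markers after CCl4 in wild type. In bulk RNA, fewer cells of a type and less RNA per cell cannot be told apart, and the part of this shift in the results was not tested.

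In 1 library of each group, chosen after the values were seen, the hepatocyte marker sums were close: Trem1-deficient mouse 5, wild-type CCl4 mouse 1 and oil mouse 2 had 19259, 16679 and 18666 CPM. Gclc was 4.69, 109.7 and 12.5 CPM in these 3 libraries, and Slc7a11 was 13.5, 35.9 and 0 CPM. Srxn1 was 322, 291 and 75.1 CPM in them, so that the Trem1-deficient mouse stood with the wild-type CCl4 mouse. Txnrd1 was 431, 786 and 237 CPM. Gsr was 82.6, 65.2 and 170.3 CPM, lowest in the wild-type CCl4 mouse and highest in the oil mouse, the reverse of its group means. These are values of 1 library per group with no test, and the part of hepatocyte RNA in the group differences was not tested. Gclc was the lowest of its group in both Trem1-deficient mouse 5 and wild-type CCl4 mouse 1. Trem1-deficient mouse 4, at 12152 CPM of hepatocyte markers, had 58.0 CPM of Gclc. CCl4 mouse 1 also had the highest Kupffer cell sum of its group, and oil mouse 2 the lowest of the oil group.

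**Figure D4:**
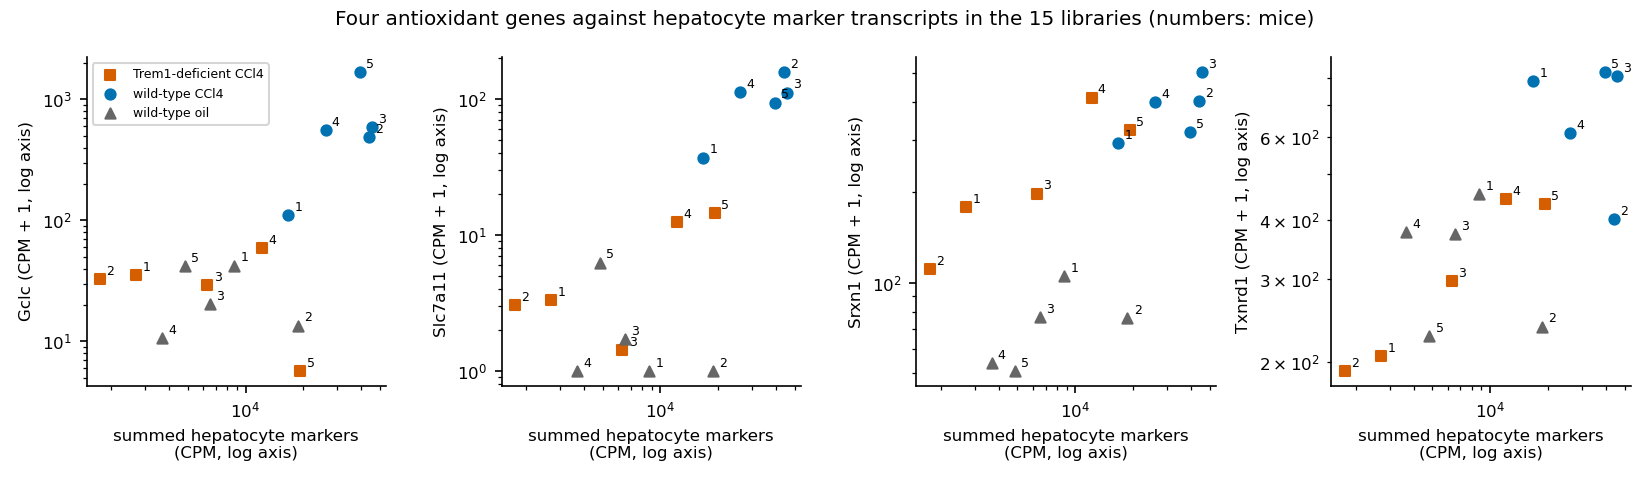
CPM plus 1 of Gclc, Slc7a11, Srxn1 and Txnrd1 against the summed CPM of 20 hepatocyte markers in the 15 libraries, both on log axes, with numbers for mice. The wild-type CCl4 libraries lie to the right, at 16679 to 45582 CPM of markers. At nearly equal sums, Gclc is 4.69, 109.7 and 12.5 CPM in Trem1-deficient mouse 5, wild-type CCl4 mouse 1 and oil mouse 2. These libraries, 1 per group, were chosen after the values were seen and carry no test.

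Within the Trem1-deficient CCl4 group, levels differed between the libraries of the 2 index series. Mice 3 to 5 averaged 311 CPM of Srxn1, against 144 CPM in mice 1 and 2, a ratio of 2.16. The ratio was 1.97 for Txnrd1, 1.81 for Gsr and 1.47 for Prdx1, with every one of mice 3 to 5 above both of mice 1 and 2 for these 4 genes. It was 3.86 for Slc7a11 and 1.38 for Gclm, with overlap between the mice of the 2 series. Hepatocyte marker sums also differed, at 6343, 12152 and 19259 CPM in mice 3 to 5 and 2709 and 1757 CPM in mice 1 and 2. The ratio of mice 3 to 5 over mice 1 and 2 was 0.915 for Gclc, 0.849 for Nfe2l2 and 0.688 for Keap1, and Keap1 was higher in both of mice 1 and 2. These are values of 3 and 2 mice that received the same treatment by their labels, given without a test, and their part in the group comparisons was not tested beyond the fits with the series.

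**Figure D5:**
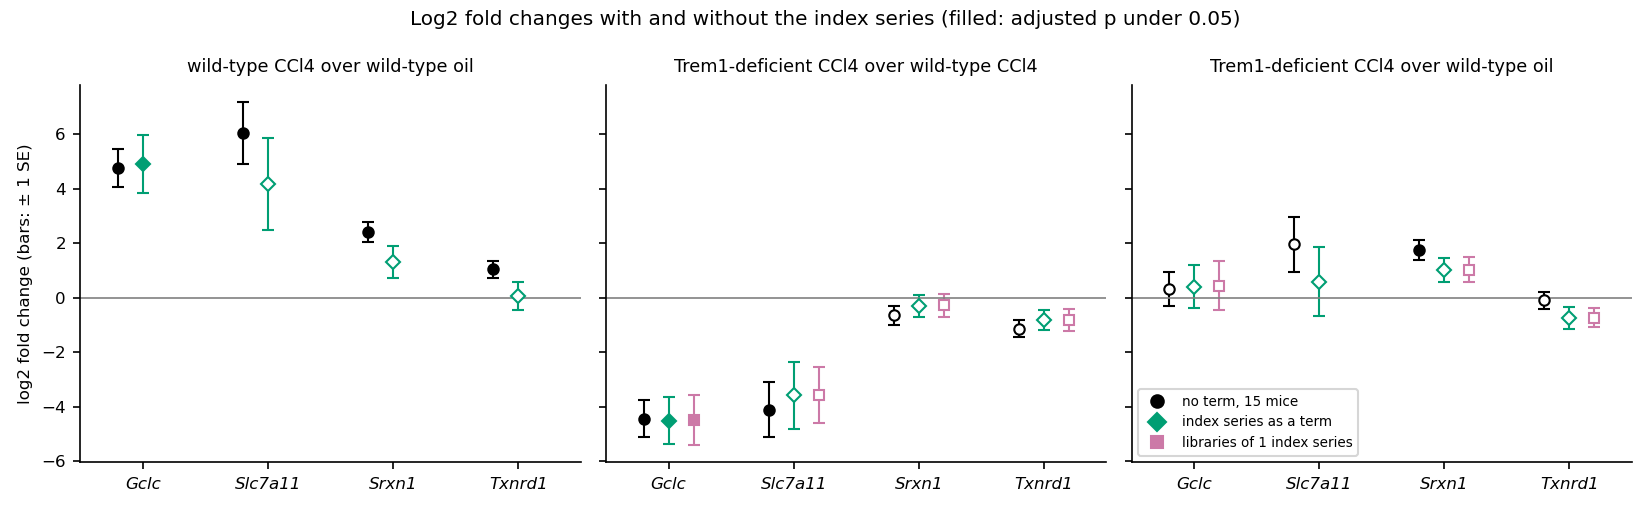
Log2 fold changes with 1 SE of Gclc, Slc7a11, Srxn1 and Txnrd1 in the 3 comparisons, from the fit of 15 mice, the fit with the index series as a term, and fits of libraries of 1 series where both groups have them; filled symbols have an adjusted p under 0.05. Gclc keeps its size and its call, at 4.92 and -4.51 with the term, while Txnrd1 after CCl4 in wild type goes to 0.06. The term is estimated from the Trem1-deficient mice alone, so it does not separate series from CCl4 in wild type.

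The other genes of the pathway were read from 7 lists with 96 genes, of which 72 could be tested. After CCl4 in wild type 4 of them were called higher and 2 lower, and their median log2 fold change was 0.12. In Trem1-deficient mice relative to wild type after CCl4, 1 was called higher and 2 lower (median -0.17), and edgeR called 0 between Trem1-deficient CCl4 mice and oil mice (median 0.05), as did DESeq2, with 2 higher and 4 lower at an unadjusted p under 0.05. The counts of calls among the 72 can be read against the 3.04% and 2.09% of all genes called higher and lower in the first comparison and the 0.778% and 1.28% in the second. The lists of glutathione supply (4 tested of 10), NADPH supply (8 of 8) and superoxide dismutases and catalase (4 of 4) held 0 edgeR calls in all 3 comparisons. At an unadjusted p under 0.05 the supply list held 0 as well. The NADPH list held 1 higher and 1 lower after CCl4 in wild type and 2 higher and 1 lower in Trem1-deficient mice, and the superoxide list held 1 lower, then 1 higher and 1 lower, and 1 lower in the third comparison. DESeq2 called G6pdx and Sod3 lower and Me1 higher after CCl4 in wild type and G6pdx higher in Trem1-deficient mice; Sod3 and Me1 are named after their values were seen.

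Among genes that use glutathione, 1 of 14 rose and 1 fell after CCl4 in wild type. In Trem1-deficient mice relative to wild type after CCl4, edgeR called 1 higher and 0 lower. At an unadjusted p under 0.05 in edgeR 3 were higher and 4 lower there, and DESeq2 called 2 higher and 2 lower. Gpx1, the main cytosolic glutathione peroxidase, fell to 682 to 1154 CPM in the wild-type CCl4 mice, against 1326 to 2631 CPM in the oil mice (log2 fold change -1.30 ± 0.24, edgeR adjusted p = 0.00104). In Trem1-deficient CCl4 mice it was higher, at 1549.6 to 2743 CPM (1.37 ± 0.24 relative to wild-type CCl4 mice, adjusted p = 0.00131), and both calls held in all 15 fits that left out a mouse. Mgst1, a membrane-bound glutathione transferase, rose to 338 ± 204 CPM in wild-type CCl4 mice, against 66.4 ± 48.9 CPM in oil mice (SD, n = 5 each; 2.35 ± 0.52, edgeR adjusted p = 0.00504). In Trem1-deficient CCl4 mice Mgst1 was at -1.81 ± 0.51 relative to wild-type CCl4 mice (edgeR adjusted p = 0.0540, DESeq2 adjusted p = 0.0223). Neither gene was called after CCl4 with the index series as a term; Gpx1 was at -1.33 there and Mgst1 at 0.58. Within 1 series Gpx1 was at 1.40 in Trem1-deficient relative to wild-type CCl4 mice and was not called (adjusted p = 0.0618).

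Of 14 thioredoxin, peroxiredoxin and glutaredoxin genes, 0 passed the edgeR test after CCl4 in wild type, where 3 were higher at an unadjusted p under 0.05 and DESeq2 called 1, Glrx5 (named after its value was seen), and 1 was lower in Trem1-deficient mice. That gene was Prdx6, a peroxiredoxin that uses glutathione, at 45.7 to 78.3 CPM in Trem1-deficient CCl4 mice and 97.1 to 285 CPM in wild-type CCl4 mice (-1.78 ± 0.47, edgeR adjusted p = 0.0395); the call held in 6 of 15 fits without a mouse, and not with the index series as a term (-1.60, adjusted p = 0.215), within 1 series (-1.59, adjusted p = 0.291) or with the mouse number as a block (adjusted p = 0.0681). Its reads may be shared with its near copy Prdx6b. Of 17 other genes known as NRF2 targets, Abcc2, an exporter of glutathione conjugates, and Sqstm1, the autophagy adaptor p62, rose after CCl4, and Blvra, a biliverdin reductase, fell (-1.76 ± 0.49, edgeR adjusted p = 0.0328). With the index series as a term none of the 3 was called: Abcc2 was at 1.13 (adjusted p = 1.00), Sqstm1 at 0.89 (adjusted p = 0.856) and Blvra at -1.81 (adjusted p = 0.745). Blvra was called in 9 of the 15 fits that left out a mouse and not in the fit of the 2 groups alone (adjusted p = 0.111). Abcc2 rested partly on wild-type mouse 1, which had 1492 CPM when the other 4 had 167 to 324 CPM. Its log2 fold change was 3.25 ± 0.75 (edgeR adjusted p = 0.0144) after CCl4 in wild type and -2.93 ± 0.73 in Trem1-deficient mice (adjusted p = 0.0451), and -1.86 without that mouse (adjusted p = 0.0617). The second call held in 4 of the 15 fits that left out a mouse (adjusted p of 0.0306 to 0.118), and not with the series term (-2.40, adjusted p = 0.143), within 1 series (-2.39, adjusted p = 0.167) or in the 2 groups alone (adjusted p = 0.0609). Sqstm1 had 708 to 939 CPM in wild-type CCl4 mice and 163 to 397 CPM in oil mice (1.39 ± 0.30, edgeR adjusted p = 0.00401). After CCl4 in wild type, DESeq2 called 4 of the 17 higher and 2 lower. At an unadjusted p under 0.05 in edgeR 4 were higher and 3 lower. In Trem1-deficient mice relative to wild type after CCl4, DESeq2 called 1 higher and 2 lower. There 2 were higher and 4 lower at an unadjusted p under 0.05 in edgeR.

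Hmox1, heme oxygenase 1, which NRF2 induces and BACH1 represses, was not called. It ranged from 1126 to 8402 CPM in Trem1-deficient CCl4 mice, from 361 to 4232 CPM in wild-type CCl4 mice and from 1013 to 6992 CPM in oil mice, so that its spread within groups exceeded the difference after CCl4 (-0.84 ± 0.70, edgeR adjusted p = 0.590). Among 11 partners and regulators of NRF2, Bach1 was called after CCl4 in wild type (1.65 ± 0.50, edgeR adjusted p = 0.0498), with a call in 3 of the 15 fits that left out a mouse and none with the series term (1.95, adjusted p = 0.674), with the mouse number as a block (adjusted p = 0.111) or in the 2 groups alone (adjusted p = 0.126). Cul3, the ligase scaffold that works with KEAP1, was at 1.35 ± 0.72 and not called. After CCl4 in wild type, DESeq2 called 2 of the 11 higher and 0 lower. At an unadjusted p under 0.05 in edgeR 4 were higher and 0 lower. In Trem1-deficient mice relative to wild type after CCl4, 0 were higher and 2 lower at that level, and DESeq2 called 0. Of the other named genes, Gss, Txn1, Gpx4 and G6pdx were not called by edgeR in any comparison; G6pdx, which supplies NADPH, had 0 to 22.6 CPM in wild-type CCl4 mice and 27.2 to 93.9 CPM in oil mice, with an edgeR adjusted p of 0.0632. DESeq2 called G6pdx at -2.86 after CCl4 (adjusted p = 0.00375) and at 2.23 in Trem1-deficient mice (adjusted p = 0.0489). Without wild-type CCl4 mouse 1, edgeR also called G6pdx in both, at -3.86 (adjusted p = 0.0180) and 3.26 (adjusted p = 0.0499).

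The genes outside the lists whose level followed the 9 tested genes most closely were found by Pearson's r with their mean z-score over the 15 libraries, among 8436 genes. The 9 did not move as 1 group: Pearson's r between pairs of them ran from -0.779 for Gsr and Keap1 and -0.444 for Gclc and Gclm to 0.826 for Gclc and Slc7a11, over the same 15 libraries. The mean z-score is thus a summary of unlike profiles. The closest genes were Pvrl1 (r = 0.949), Lpin2 (0.896), Mbl1 (0.863), Mup21 (0.854) and F12 (0.842). The libraries share groups, depth and cell make-up, so these values describe likeness in this set and carry no test. Lpin2 averaged 137 ± 80.0 CPM in Trem1-deficient CCl4 mice, 614 ± 361 CPM in wild-type CCl4 mice and 96.6 ± 33.7 CPM in oil mice (SD, n = 5 each). Pvrl1 was low, at 3.86, 20.7 and 2.45 CPM on average in the same order. It met the required mean of 10 CPM in at least 1 group only through the wild-type CCl4 mice, so its likeness was partly fixed by that filter. Mup21 belongs to a family of near-identical genes among which reads may be split.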

How the data were processed

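The deposited table holds raw counts of reads per gene, made by the authors from QuantSeq 3′ tag libraries with 1 column per mouse (4 lanes each); the submitters' processing notes list Trimmomatic, STAR 2.5.1a, Partek 6.6 and mm10 without saying which step each served, and no source used here states the strand setting. A tag library gives reads from the 3′ end, so counts need no length correction; without molecular identifiers, floors cover counting error only. The 4 tally rows were left out; genes took 12.6 to 28.8% of reads.

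Tests were run on these counts in edgeR 4.0.16 (R 4.3.3) with TMM scaling, filterByExpr by group, the robust quasi-likelihood F-test on 1 fit of 3 groups of 5 mice (12 residual degrees of freedom), and Benjamini-Hochberg adjustment over 9001 genes. Levels are TMM-scaled CPM, with a pseudocount of 1 where logged for likeness; marker sums are of the same values. Alternatives were DESeq2 1.42.0, RLE factors, no filter, a non-robust fit, 2-group fits, an index-series term, 1 series alone, a mouse-number block and leaving out each mouse. The code was tested on simulated counts. The labels number the mice of a group, so p-values measure the spread between mice as labelled. Names in the text are the 10 genes, every called gene of the 7 pathway lists (at most 4 per list and comparison), 10 fixed pathway genes, Trem1, Clec4f and the 5 most alike genes; Ass1, Xist, Sod3, Me1, Glrx5, Gm17494 and Gm16754 were named after their values or positions were seen. Members and lists were chosen with earlier results of these data known. Positions are from GENCODE M21 and promoters from RefSeq (GRCm38.p6, the assembly of mm10).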

Additional observations from a re-analysis of the deposited data

Results flagged for a closer look

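Of 42 sets of 5 mice examined, 7 held a mouse whose distance from the nearest other mouse was an unusually large share of the range of its group (Dixon's 95% limit of 0.71 for 5 values). For normally distributed values chance flags about 1 set in 20, a rate that need not hold for CPM near 0. Nqo1 in oil mice, at 0 throughout, could not be flagged. Gclm was lowest in Trem1-deficient CCl4 mouse 1, at 16.4 CPM, when the other 4 had 36.5 to 37.5 CPM. Nqo1 was highest in wild-type CCl4 mouse 3, at 12.4 CPM from 13 counts. Slc7a11 was highest in oil mouse 5, at 5.26 CPM from 11 counts.

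The other 4 were all in oil mouse 2. Gsr was highest there, at 170.3 CPM, and Keap1 lowest, at 21.3 CPM. The same library had the lowest Kupffer cell marker sum of the oil group, at 36913 CPM, and its highest monocyte marker sum, at 2236 CPM. Without oil mouse 2 the log2 fold change of Gsr after CCl4 in wild type was 1.48, the largest over the 15 fits that left out a mouse, and it was not called (edgeR adjusted p = 0.0685).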

How the results depend on the processing

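Gclc kept its direction and its call after CCl4 in wild type and in Trem1-deficient mice under all alternatives that could be fitted. The fit of 1 series alone was not possible for CCl4 in wild type, where the groups share no series. Among all genes, calls after CCl4 in wild type, in Trem1-deficient mice and between Trem1-deficient CCl4 and oil mice numbered 462, 185 and 21; they were 813, 563 and 73 with no filter on low counts, 1084, 660 and 75 by DESeq2, and 37, 77 and 11 with the index series as a term, and 57 for the second comparison within 1 series. Leaving out 1 mouse gave 302 to 759, 87 to 508 and 12 to 31 calls, with the most in the first 2 comparisons without wild-type CCl4 mouse 1. Of the 10 genes, 4, 2 and 1 were called; this became 1, 1 and 0 with the series term, 1 and 0 within 1 series for the second and the third, and 3 to 4, 1 to 3 and 0 to 1 without 1 mouse. Why these counts moved was not tested, beyond the smaller number of libraries in some fits.

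Mouse numbers did not pair the samples (15 same-number pairs, r from -0.06 to 0.04), and with the replicate block 3, 3 and 0 of the 10 genes were called (against 4, 2 and 1): Txnrd1 was lost in the first comparison (adjusted p = 0.0541) and Srxn1 in the third (0.0572), and Txnrd1 was gained in the second (0.0484); Gclm (0.21), Cul3 (0.16) and Gpx4 (0.11) turned positive in the second. RLE factors, with which the median of all genes was 0.11 in the first and -0.11 in the second comparison, and DESeq2 turned Prdx1 in the second (-0.0247 and -0.0233). Other changes of sign were all in uncalled values. With the series term these were Prdx1 in the first comparison (-0.28), Gclm in the second (0.075) and Abcc2 (-1.26), Hmox1 (-0.73), Mgst1 (-0.75) and Prdx1 (-0.002) in the third comparison; within 1 series, Gclm (0.10), Abcc2 (-1.24), Hmox1 (-0.72) and Mgst1 (-0.73). Without 1 mouse the ranges were -1.60 to 0.38 for Gpx4 in the first comparison; -0.41 to 0.45 for Gclm, -1.24 to 0.25 for Gpx4 and -0.0791 to 0.31 for Prdx1 in the second; and -0.18 to 0.66 for Abcc2, -0.045 to 0.19 for Gpx1, -0.42 to 0.21 for Gsr, -0.43 to 1.31 for Gss, -0.10 to 0.29 for Keap1 and -0.25 to 0.0473 for Txnrd1 in the third comparison. Slc7a11 was filtered out, and so has no value, for the third comparison in the 2-group and within-series fits. Depth limits Nqo1 and, in oil mice, Slc7a11, which rest on few counts.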
